A study of Mus musculus with 15 samples.

Results

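The miR-15/16 seed family was followed in liver grafts of mice through 6 members on the array, which are mmu-miR-15a, mmu-miR-15b, mmu-miR-16, mmu-miR-195, mmu-miR-322 and mmu-miR-497 (the prefix for mouse is left out from here on). The members were chosen by name, with earlier results of these data known, and they are 6 of the 567 mouse miRNAs that the array measures. Each of the 6 passed the filter on dim signals and was tested, among 103 miRNAs tested in all. Total RNA of 15 grafts was labeled with Cy3 and hybridized to 1-color arrays, 1 graft per array and 3 mice per group. The allografts were livers of B10.BR (H2-Kk) donors in B10.D2 (H2-Kd) recipients, taken on day 5, day 8, day 14 or day 100 after surgery, and the control group was syngeneic grafts on day 5. All mice were male, and their age is not given in the sources used here. The labels carry the same B10.BR and B10.D2 pair for the syngeneic arrays, so the titles alone put those arrays in the syngeneic group, and which strain was grafted into itself is not given in the sources used here. Syngeneic grafts were sampled on day 5 alone, so that for days 8, 14 and 100 the donor combination and the time since surgery cannot be told apart.

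MiRNAs are short RNAs that guide the silencing complex to messenger RNAs, and the seed near the 5′ end decides most of the pairing. Members of one seed family therefore share most of their predicted targets. The miR-15/16 family is best known as a brake on the cell cycle, through targets such as cyclin D1, cyclin E1, CHEK1 and WEE1, and as a repressor of the survival gene BCL2. The locus of miR-15a and miR-16 is deleted in many chronic lymphocytic leukemias, miR-195 and miR-497 restrain proliferation in several tissues, and miR-322 is the rodent counterpart of human miR-424.

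The mature sequences are shown because the seed defines the family, while the bases after it are what tells the probes of the members apart. They are the RefSeq sequences of assembly GRCm38.p6, found by name for all 6 members, and the capitals mark bases 2 to 8, the seed.
miR-15a: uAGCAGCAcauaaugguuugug
miR-15b: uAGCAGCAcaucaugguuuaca
miR-16: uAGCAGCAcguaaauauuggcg
miR-195: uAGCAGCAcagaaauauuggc
miR-322: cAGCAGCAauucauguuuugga
miR-497: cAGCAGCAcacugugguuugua
All 6 share the seed AGCAGCA. Counted from the 5′ end, miR-16 and miR-195 are equal at 19 of 21 positions, and miR-15a and miR-15b at 18 of 22. By the share of equal positions the least alike pair is miR-16 and miR-497, with 11 of 22, and miR-195 and miR-322 are equal at 11 of 21. The probe sequences were not used here, so how far a probe also binds a relative was not tested.

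The members come from 4 genomic clusters. miR-15b (chr3:69009775-69009796, plus strand) and a copy of miR-16 (chr3:69009918-69009939, plus strand) lie in Smc4, a condensin subunit gene, with 66 bases between their hairpins. miR-15a (chr14:61632075-61632096, minus strand) and the other copy of miR-16 (chr14:61631936-61631957, minus strand) lie in the noncoding gene Dleu2, with 54 bases between hairpins. Both copies give the same mature miR-16, so the array signal of miR-16 is their sum and cannot be told apart by locus. miR-497 (chr11:70234730-70234751, plus strand) and miR-195 (chr11:70235062-70235082, plus strand) have 241 bases between hairpins, and no gene of the table used contains them. miR-322 (chrX:53054306-53054327, minus strand) lies with miR-503 and miR-351 in the gene C430049B03Rik. RefSeq lists 10 mature mouse miRNAs with this seed, of which 6 are the members followed here. Whether the array names the others was not checked.

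Signals are given on the log2 scale relative to the 75th percentile of the same array, taken over the 52 miRNAs found on each of the 15 arrays. A value of 0 is thus the level of that percentile, and signals below a floor were set to -5.21. Detection means that at least 0.5 of the spots of 1 probe stood well above background. Each array detected 60 to 115 miRNAs, and no spot was saturated. Syngeneic replicates 1 and 2 detected 79 and 71, and their 75th percentiles were 515 and 395 units of intensity. On days 8 and 14, on the same slide, every array detected more, with percentiles of 718 to 1018 units. Syngeneic replicate 3 had 616 units. Day 5 allograft replicate 3 and day 100 replicate 2 were also dim, with 457 and 516 units. The part of array brightness in the detection and differences of dim members was not tested. Replicate 1 of day 100 was the noisiest array: the software's additive error was 13.1 units of intensity there and 2.67 to 3.66 elsewhere. The arrays lay on 2 slides. Syngeneic replicates 1 and 2 shared slide 1 with days 8 and 14, and syngeneic replicate 3 shared slide 2 with days 5 and 100. Comparisons of days 5 and 100 therefore had 1 syngeneic array on their own slide. Levels are compared within a member only, since each member has probes of its own.

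miR-15a, miR-15b and miR-16 were detected on all 15 arrays. miR-195 was detected on 11, miR-322 on 9 and miR-497 on 11, and in the syngeneic grafts these 3 were detected only on replicate 3. Against the syngeneic grafts, limma called 2 of the 6 members different on day 5 (25.2% of all miRNAs tested), 3 on day 8 (40.8%), 4 on day 14 (45.6%) and 3 on day 100 (31.1%). Every call was a rise, where 18.4%, 23.3%, 27.2% and 16.5% of the miRNAs tested rose on these days and 6.8%, 17.5%, 18.4% and 14.6% fell. The arrays of 2, 3, 4 and 2 members did not overlap with the syngeneic arrays, as for 30.1%, 51.5%, 54.4% and 29.1% of all tested. The median log2 difference of the 6 members was 0.31, 0.44, 0.63 and 0.63 on days 5, 8, 14 and 100, beside 0.12, 0.14, 0.07 and 0.00 for all 103 miRNAs. With a term for the slide the calls became 0, 3, 4 and 1, and those over all miRNAs tested 4.85%, 44.7%, 47.6% and 15.5%. The members did not move alike: miR-15b, miR-16 and miR-322 rose by day 8, miR-15a was called only on day 14, and miR-195 and miR-497 only on day 100, where the call was lost with the slide term (adjusted p = 0.62 and 0.65). Over the 5 groups, the moderated F test called 5 of 6 members (64.1% of all tested), all but miR-15a (adjusted p = 0.11). These are bulk samples, in which more cells of a type and more RNA per cell cannot be told apart.

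**Figure D1:**
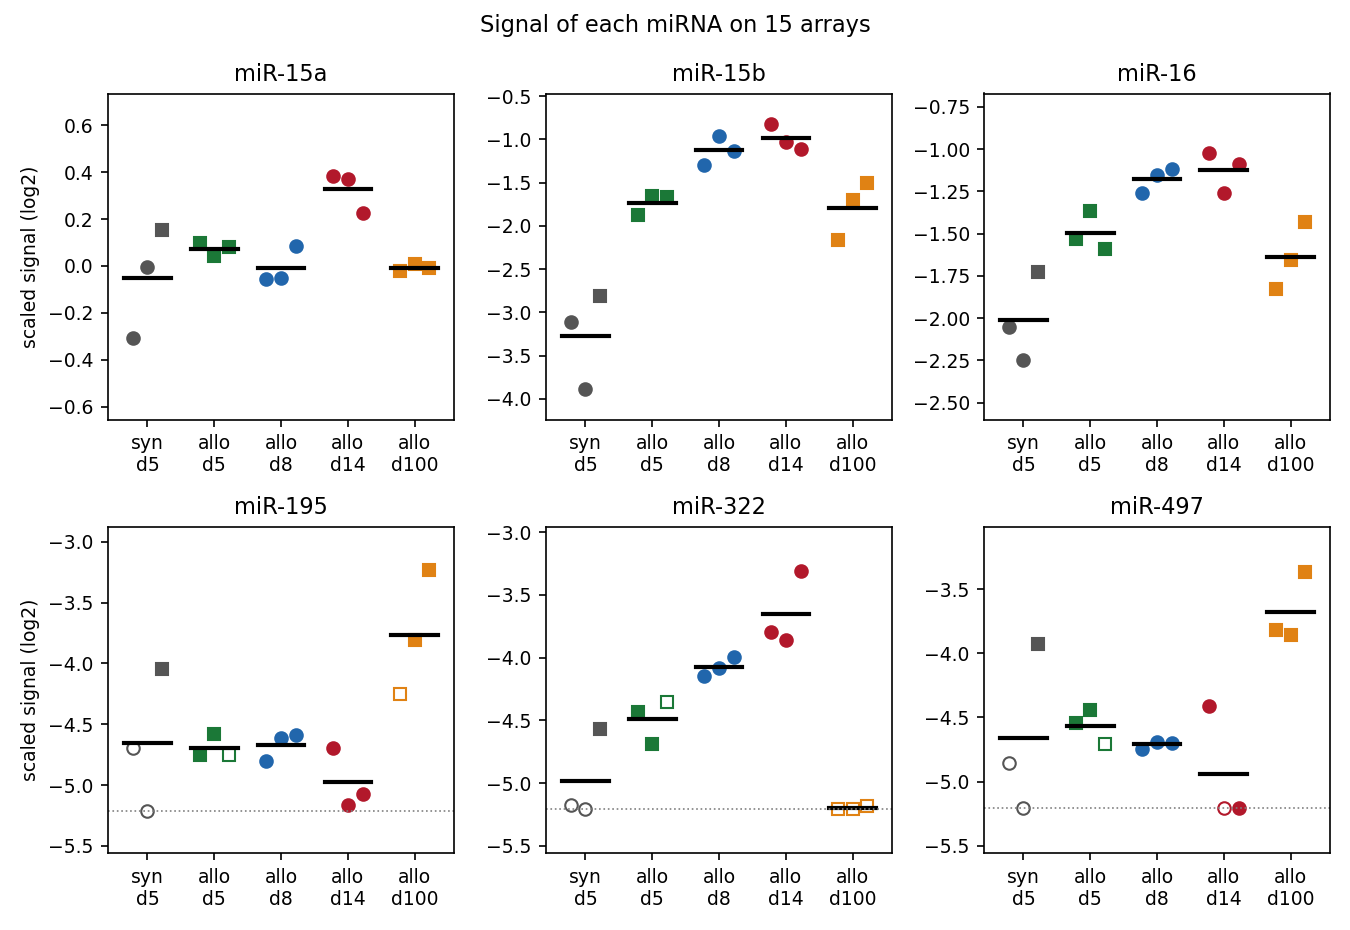
Scaled signal (log2) of each member on the 15 arrays, with a separate vertical scale per panel. Each point is 1 array (circles slide 1, squares slide 2; open points not detected), black lines are group means, and the dotted line is the floor of -5.21. The syngeneic arrays of miR-15b lie between -3.89 and -2.81, below all 12 allograft arrays, and the 3 arrays of day 100 are not detected for miR-322.

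Of the 6 members, miR-15b had the largest difference from the syngeneic grafts on each day. The syngeneic grafts had -3.11, -3.89 and -2.81. The signal in the allografts was -1.88, -1.66 and -1.67 on day 5, and -1.30, -0.96 and -1.13 on day 8. It was -0.82, -1.03 and -1.11 on day 14, and -2.17, -1.70 and -1.51 on day 100. All 12 allograft arrays lay above the 3 syngeneic arrays, the days 8 and 14 overlapped each other, and both lay above days 5 and 100, which also overlapped. The rise on day 5 was 2.90-fold (log2 1.54 ± 0.25 SE, adjusted p = 0.0011). It was 4.41-fold on day 8 (log2 2.14 ± 0.25, adjusted p = 4.68e-05) and 4.87-fold on day 14 (log2 2.28 ± 0.25, adjusted p = 1.13e-05). On day 100 it was still 2.79-fold (log2 1.48 ± 0.25, adjusted p = 0.0012). The study chose miR-15b among its 10 miRNAs on these arrays, so its call here is not independent of that choice. Against the syngeneic arrays of the same slide days 5, 8, 14 and 100 differed by 1.07, 2.37, 2.51 and 1.02. A block for the slide gave an adjusted p of 0.064 on day 5, so that this call was lost, and 0.042 on day 100.

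miR-16, which is made at the miR-15b locus and at the miR-15a locus, rose less. The syngeneic grafts had -2.06, -2.25 and -1.73. The allografts had -1.53, -1.37 and -1.59 on day 5 and -1.26, -1.15 and -1.12 on day 8. They had -1.02, -1.26 and -1.09 on day 14 and -1.83, -1.65 and -1.43 on day 100. The arrays of days 5, 8 and 14 lay above the syngeneic arrays, and those of day 100 overlapped them. The rise was 1.43-fold on day 5 (log2 0.51 ± 0.16, adjusted p = 0.030), 1.78-fold on day 8 (0.84 ± 0.16, adjusted p = 0.0011) and 1.85-fold on day 14 (0.89 ± 0.16, adjusted p = 0.00050). On day 100 the difference was 0.37 (95% interval 0.03 to 0.72, adjusted p = 0.079). Within slide 1 the rise was 0.98 on day 8 and 1.03 on day 14. On slide 2, against the 1 syngeneic array there, the difference was 0.23 on day 5 and 0.09 on day 100, and the call of day 5 was lost once the slide was a block (adjusted p = 0.44). That call was also lost when syngeneic replicate 1 or 2 or allograft replicate 1 or 2 of day 5 was left out, with adjusted p of 0.065, 0.099, 0.068 and 0.10.

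miR-15a, the partner of miR-16 in Dleu2, changed little. Its syngeneic signals were -0.30, -0.01 and 0.15. Its allograft signals were 0.10, 0.04 and 0.08 on day 5, -0.06, -0.05 and 0.09 on day 8, 0.39, 0.37 and 0.23 on day 14, and -0.02, 0.01 and -0.01 on day 100. The 3 arrays of day 14 lay above all other arrays of miR-15a. The rise on day 14 was 1.30-fold (log2 0.38 ± 0.13, adjusted p = 0.030). It lost its call when syngeneic replicate 1 was left out (log2 0.25, adjusted p = 0.14), and when day 14 replicate 1 or 2 was (adjusted p = 0.086 and 0.081). The differences were 0.13 on day 5 (95% interval -0.16 to 0.41), 0.05 on day 8 (-0.24 to 0.33) and 0.05 on day 100 (-0.24 to 0.33), and none was called. The SD of miR-15a over the 15 arrays, 0.17, ranked 99 of 103 from the largest, whereas the SD of miR-15b, 0.88, ranked 14 (median of all tested, 0.45).

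**Figure D2:**
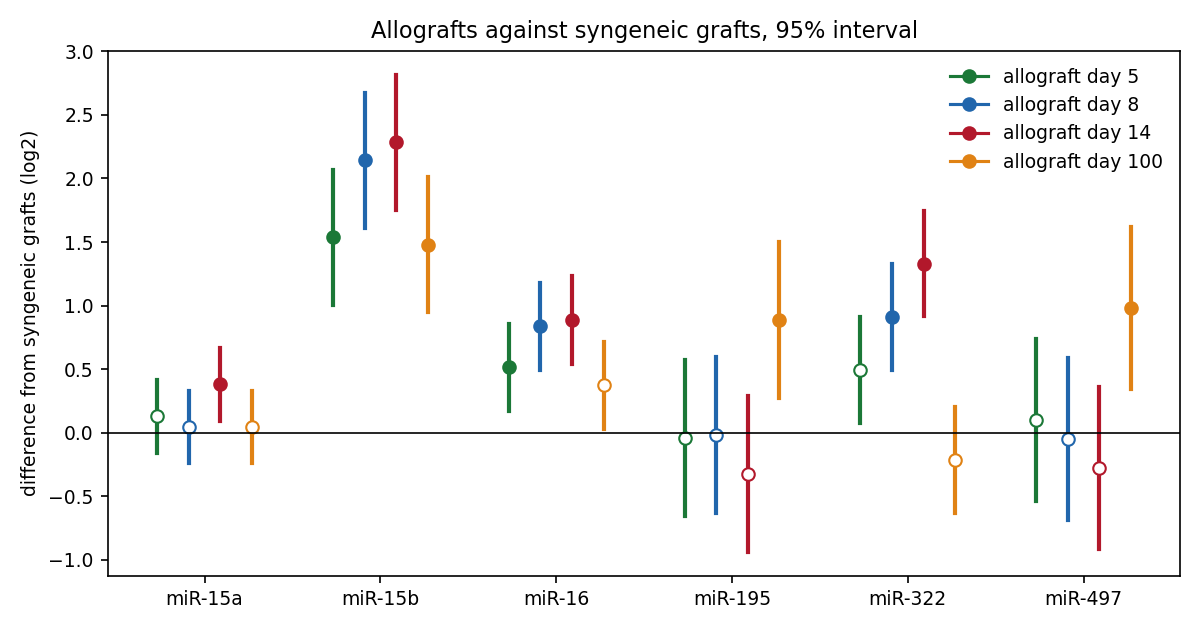
Log2 difference of each member between allografts and syngeneic grafts, with the 95% interval of limma (3 arrays per group). Filled points have an adjusted p under 0.05 and open points do not. The points of miR-15b range from 1.48 to 2.28, those of miR-16 from 0.37 to 0.89 and those of miR-15a from 0.05 to 0.38.

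Whether the signals of 2 members moved by the same amount was tested with differences within each array. Any factor that scales a whole array cancels in such a difference. The signal of miR-16 sums its copies at the Smc4 and Dleu2 loci. Pairs with miR-16 therefore cannot decide whether the members of one locus moved together. Of 5 planned pairs, the 3 whose members were detected on all 15 arrays were compared between the 12 allografts and the 3 syngeneic grafts, which leaves out miR-195 with miR-497 and miR-322 with miR-16. miR-15b minus miR-16 was -1.06, -1.64 and -1.08 on the syngeneic arrays. Among the allografts it ranged from -0.35 to 0.23, and the groups did not overlap. The mean rose from -1.26 ± 0.33 (SD, n = 3) to -0.05 ± 0.20 (SD, n = 12), a change of 1.21 (exact two-sided permutation test, p = 0.0022, the smallest that 455 splits can give, adjusted p = 0.0033 over 3 pairs). Its means for days 5, 8, 14 and 100 were -0.24 ± 0.14, 0.05 ± 0.13, 0.14 ± 0.14 and -0.16 ± 0.16 (SD, n = 3 each). Within slide 1 the change was 1.44 and within slide 2 it was 0.89, with 2 and 1 syngeneic arrays. An additive background does not cancel within an array. With normexp background correction (offset 50), miR-15b differed from the syngeneic grafts by 0.44, 0.89, 0.98 and 0.49 on days 5, 8, 14 and 100. miR-16 then differed by 0.15, 0.40, 0.42 and 0.12, so the gap between them was smaller on each day than without this correction. The offset of 50 is added to every spot, which by itself shrinks log2 differences of dim miRNAs. The smaller gap therefore cannot tell an effect of background from that of the offset. Without normexp, miR-15b rose by more than miR-16 in all 12 allografts, relative to each of the 3 syngeneic arrays. The study chose miR-15b on these arrays by its difference from the same syngeneic grafts. The tests of miR-15b with miR-16 and with miR-15a are therefore not independent of that choice.

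The other pairs moved as well. miR-15b minus miR-15a, from separate loci, rose from -3.22 ± 0.58 to -1.51 ± 0.36, a change of 1.71 without overlap (exact permutation p = 0.0022, adjusted p = 0.0033), and by 2.13 and 1.16 within slides 1 and 2. miR-15a minus miR-16, with miR-16 again the sum of its loci, fell from 1.96 ± 0.26 to 1.46 ± 0.22, a change of -0.50 (exact permutation p = 0.0044, adjusted p = 0.0044). Here the groups overlapped, with syngeneic arrays at 1.75, 2.25 and 1.88 and allografts between 1.102 and 1.81. The change was -0.69 within slide 1 and -0.28 within slide 2. The lowest group mean of this pair, 1.17 ± 0.06 (SD, n = 3), was that of day 8.

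**Figure D3:**
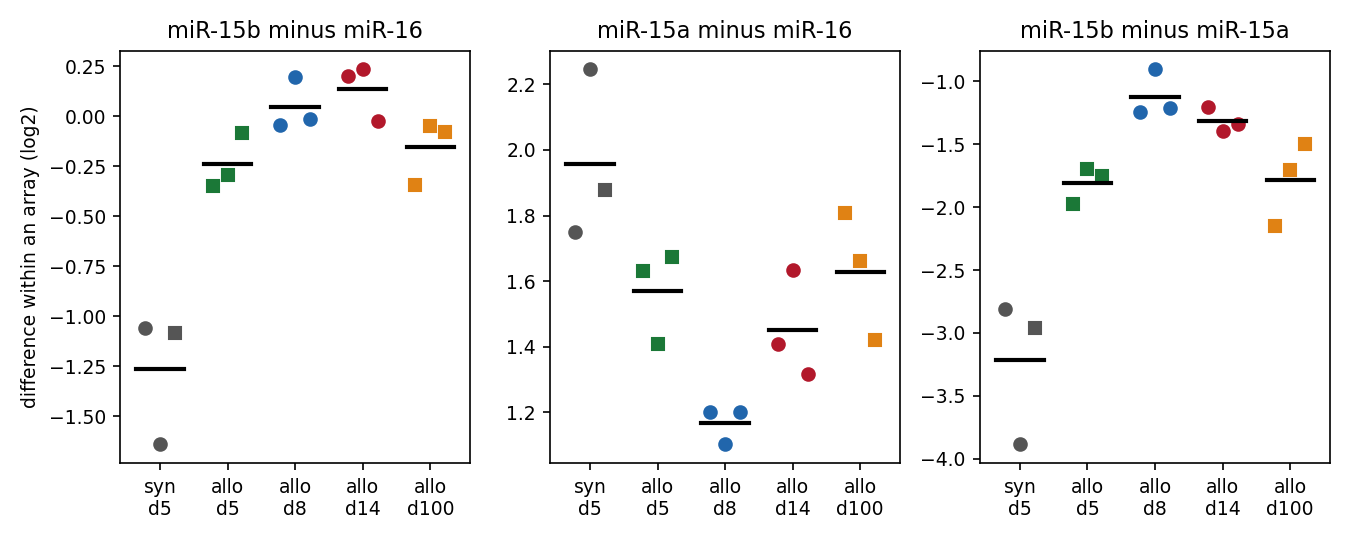
Difference between 2 members within an array (log2), by group, with a separate vertical scale per panel. Each point is 1 array (circles slide 1, squares slide 2) and black lines are group means. For miR-15b minus miR-16 the syngeneic arrays lie between -1.64 and -1.06 and the allografts between -0.35 and 0.23.

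miR-322 was the member that rose most after miR-15b on day 14 and was undetected on day 100. The syngeneic grafts had -5.18, -5.21 and -4.57, of which only the last was detected. The allografts had -4.44, -4.69 and -4.35 on day 5 (2 of 3 detected), -4.15, -4.08 and -4.00 on day 8, and -3.79, -3.86 and -3.31 on day 14 (3 of 3 on both days). On day 100 they had -5.21, -5.21 and -5.18, none detected. The arrays of day 14 lay above those of day 8, those of day 8 above those of day 5, and those of day 5 overlapped the syngeneic arrays. The rise was 1.88-fold on day 8 (log2 0.91 ± 0.19, adjusted p = 0.0021) and 2.51-fold on day 14 (1.33 ± 0.19, adjusted p = 8.15e-05), against a group with 1 array detected. miR-322 passed the filter only through days 8 and 14, when all 3 arrays detected it. Its calls on these days are therefore not independent of the filter. On day 5 the difference was 0.49 (95% interval 0.08 to 0.91, adjusted p = 0.080). The brighter probe moved by 0.59 on day 8 and 1.03 on day 14 and the dimmer by 0.15 and 0.54. Within slide 1 the rises were 1.12 and 1.54, larger than over both slides. The syngeneic arrays there were replicates 1 and 2, at or near the floor and not detected, so these sizes depend on the floor. The call of day 8 over both slides was lost with the floor divided by 4 (log2 1.24, adjusted p = 0.065). It was also lost with the methods' t-test after adjustment (adjusted p = 0.054). The call of day 14 was kept under both. When the background was corrected by normexp, the differences were -0.21 on day 8 and -0.15 on day 14, where the median over all miRNAs tested was -0.23 and -0.36.

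The transcript of miR-322 carries other miRNAs, and the array names 9 of its neighbors, among them miR-503 and miR-351. None of the 9 was detected on any array, so that the rise of miR-322 could not be followed in its cluster. The passenger strands of the members, the arms opposite to those above, were 4 on the array (miR-15a*, miR-15b*, miR-16* and miR-322*), and none was detected either.

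miR-195 and miR-497, neighbors on chromosome 11, followed each other. miR-195 had -4.69, -5.21 and -4.05 in the syngeneic grafts, -4.75, -4.58 and -4.76 on day 5, and -4.80, -4.62 and -4.59 on day 8. It had -4.69, -5.16 and -5.07 on day 14 and -4.25, -3.81 and -3.23 on day 100, where the lowest array, noisy replicate 1, was not detected. miR-497 had -4.86, -5.21 and -3.93 in the syngeneic grafts, -4.55, -4.44 and -4.71 on day 5, and -4.75, -4.69 and -4.70 on day 8. It had -4.41, -5.21 and -5.21 on day 14 and -3.82, -3.86 and -3.37 on day 100. The day 100 arrays were the highest allografts for both, and syngeneic replicate 3, on the same slide, was above the other syngeneic arrays.

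On day 100 limma called miR-195 1.85-fold higher than in the syngeneic grafts (log2 0.89 ± 0.28, adjusted p = 0.029, arrays overlapping) and miR-497 1.98-fold (0.98 ± 0.29, adjusted p = 0.025, arrays not overlapping). Against the syngeneic array of the same slide the differences were 0.29 and 0.24. Without syngeneic replicate 2 the differences were 0.61 and 0.71 (adjusted p = 0.13 and 0.11), and without syngeneic replicate 1 they were 0.87 and 0.89 (adjusted p = 0.057 for both). Without day 100 replicate 3 they were 0.62 and 0.82 (adjusted p = 0.13 and 0.099), and without day 100 replicate 2 miR-195 had 0.91 (adjusted p = 0.053). The difference was carried by the brighter probe of each (0.93 and 0.99), while the dimmer one, near the floor, moved by 0.20 and 0.04. With normexp the differences were -0.04 and -0.03, beside a median of -0.23 over all miRNAs tested. On days 5, 8 and 14 neither was called, with differences of -0.04, -0.02 and -0.32 for miR-195 and 0.10, -0.05 and -0.28 for miR-497.

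Day 14, the day of the highest mean for miR-15a, miR-15b, miR-16 and miR-322, was compared with the other allograft days. Against day 5, 1 member was called (12.6% of all tested), which was higher (2.91% higher and 9.71% lower of all tested). This was miR-322, by 0.84 ± 0.19 (1.79-fold, adjusted p = 0.012). The arrays of 4 members did not overlap between these days (42.7% of all tested). Without day 5 replicate 2 the difference of miR-322 was 0.74 (adjusted p = 0.055), and with a block for the slide 1.46 (adjusted p = 0.0093). With normexp it was 0.16 (adjusted p = 0.79), and with the floor divided by 4 it was 0.84 (adjusted p = 0.31). The call of miR-322 was kept under 23 alternatives and lost under 8. The difference of miR-15b was 0.75 (95% interval 0.21 to 1.28, adjusted p = 0.062). Against day 8, on the same slide, limma called 0 members (5.83% of all tested), and the arrays of 2 members did not overlap (46.6%). These were miR-15a (difference 0.33, limma's unadjusted p = 0.025, adjusted p = 0.15) and miR-322 (difference 0.42, limma's unadjusted p = 0.047, adjusted p = 0.22), the 2 members with an unadjusted p under 0.05. The methods' t-test called 1 member before and 0 after adjustment. For miR-15b and miR-16 the difference from day 8 was 0.14 (-0.39 to 0.68) and 0.05 (-0.29 to 0.39).

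Against day 100 all 6 members were called (51.5% of all tested), 4 higher on day 14 (33.0%) and 2 lower (18.4%), and for all 6 the arrays of the 2 days did not overlap (65.0%). miR-15b was 1.75-fold higher on day 14 (log2 0.80 ± 0.25, adjusted p = 0.016), miR-16 1.43-fold (0.51 ± 0.16, adjusted p = 0.017) and miR-15a 1.26-fold (0.33 ± 0.13, adjusted p = 0.048). miR-322, detected on 3 arrays of day 14 and 0 of day 100, was at least 1.85-fold higher. This bound takes the higher of each dim array's own signal and its lowest signal well above background. The adjusted p of 0.00011 belongs to limma's fitted log2 difference of 1.54, with arrays at the floor. This call is not independent of the filter, which miR-322 passed through day 14 and not through day 100. With normexp the log2 difference was 0.21, smaller than this bound (adjusted p = 0.42), beside a median of -0.09 over all miRNAs tested. miR-195 was lower on day 14 (fitted log2 difference -1.21 ± 0.28, adjusted p = 0.0052), as was miR-497 (-1.26 ± 0.29, adjusted p = 0.0052). On day 14 miR-497 was at the floor on 2 of 3 arrays and miR-195 close to it on 2, so these sizes are uncertain and that of miR-497 depends on the floor. The days lay on different slides, and the slide as a block rests on the syngeneic arrays. With it miR-195 and miR-497 were lower by a log2 of -0.31 and -0.15 (adjusted p = 0.62 and 0.76), whereas the differences were 1.50 for miR-15b, 0.94 for miR-16, 0.64 for miR-15a and 2.17 for miR-322, all called (19.4% of all tested). Without the noisy replicate 1 of day 100, 3 members were called, miR-322, miR-195 and miR-497, and miR-15b had 0.62 (adjusted p = 0.071), miR-16 0.42 (adjusted p = 0.068) and miR-15a 0.33 (adjusted p = 0.091). Without day 14 replicate 1, miR-15b had 0.72 and miR-16 0.46 (adjusted p = 0.062 for both), and miR-15a 0.31 (adjusted p = 0.13). The call of miR-15a was lost under 20 of 32 alternatives, among them leaving out any 1 of the 12 allograft arrays (adjusted p = 0.052 to 0.13).

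**Figure D4:**
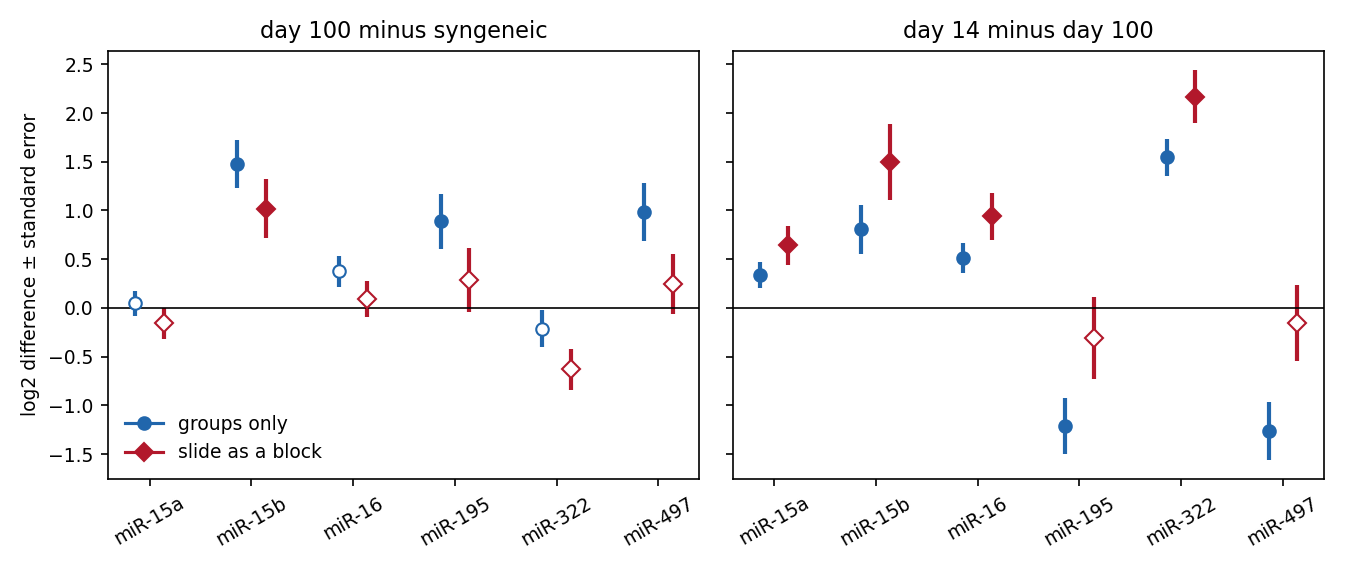
Log2 difference ± standard error of each member, for day 100 minus syngeneic grafts and for day 14 minus day 100, fitted with groups only (circles) and with the slide as a block (diamonds). Filled symbols have an adjusted p under 0.05. For miR-195 and miR-497 the day 100 difference moves from 0.89 and 0.98 to 0.29 and 0.24. The miR-322 values include arrays at the floor.

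Likeness was described by the root-mean-square difference between centered log2 signals over the 15 arrays, which share libraries and scaling. Among the members, miR-195 and miR-497 were the most alike (0.17), followed by miR-15a and miR-16 (0.29) and by miR-16 and miR-322 (0.37). miR-195 and miR-497 lay at or near the floor on several arrays, and the part of the floor in their likeness was not tested. miR-15b and miR-16, whose signal sums its loci, differed by 0.53, and miR-15b and miR-497 by 1.00. miR-16 and miR-195, whose sequences differ at 2 positions, differed by 0.64. Among the miRNAs tested outside the family, the nearest to miR-15b were miR-652 (0.26), miR-146a (0.36) and miR-23a (0.42). The nearest to miR-16 were let-7i (0.19), miR-24 (0.20) and miR-93 (0.20), and to miR-15a miR-17* (0.10), miR-24 (0.16) and miR-500 (0.19). miR-322 was nearest to miR-93 (0.35), miR-25 (0.39) and miR-221 (0.40). miR-195 was nearest to miR-99a (0.21), miR-125b-5p (0.23) and let-7c (0.26), and miR-497 to miR-199b (0.22), miR-99a (0.25) and miR-10a (0.27). A small difference is easier to reach for a member that varies little, such as miR-15a.

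Relatives with a shifted or altered seed were also read. miR-103 and miR-107 carry AGCAGCA 1 base nearer to the 5′ end, so that their seed, in capitals, is GCAGCAU.
miR-103: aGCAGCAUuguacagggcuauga
miR-107: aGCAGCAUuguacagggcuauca
miR-107 rose on day 8 (log2 0.50 ± 0.18, adjusted p = 0.042), and miR-103 differed by 0.61 ± 0.26 that day (adjusted p = 0.074). Neither was called in the other comparisons, and miR-503 was not detected.

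Markers of other cells moved over the same days. Of the 6 leukocyte miRNAs tested (8 on the array), 6, 4, 6 and 3 rose on days 5, 8, 14 and 100. Their summed scaled signal was 0.703 to 1.77 in the syngeneic grafts, 3.23 to 8.38 on day 5, 2.47 to 2.88 on day 8, 3.30 to 4.49 on day 14 and 1.14 to 1.66 on day 100. miR-155 was detected on no syngeneic array and miR-150 on no array. From 45.9% to 81.8% of this sum, by array, was miR-142-3p, which had its highest mean on day 5. The other 5 tested had theirs on day 14, the day of the highest means of miR-15b, miR-16 and miR-322. The 3 that rose on day 100, when miR-15b was also called, were miR-342-3p (log2 1.67, adjusted p = 8.54e-05), miR-223 (0.80, adjusted p = 0.025) and miR-146a (0.91, adjusted p = 0.011), and their arrays did not overlap the syngeneic ones. Of the 2 erythroid miRNAs tested, 1, 1, 1 and 0 rose and 0, 1, 0 and 0 fell on the 4 days. miR-451 rose by 1.55 on day 14 (adjusted p = 0.0023), where miR-144 differed by 0.01 (adjusted p = 0.99), and miR-144 fell on day 8 (-1.57, adjusted p = 0.018). The erythroid sum was 0.594 to 1.21 in the syngeneic grafts and 1.82 to 2.48 on day 14. Of the 6 hepatocyte miRNAs tested, 4, 6, 6 and 4 fell on the 4 days, and their sum went from 31.1 to 37.0 in the syngeneic grafts to 13.6 to 17.6 on day 14. The study chose miR-148a, miR-101a and miR-101b of this list as lower in allografts on these arrays. It chose miR-223, miR-146a and miR-451 of the lists above as higher. Their part in these counts is therefore not independent of that choice. Neither of the 2 stromal and endothelial miRNAs tested was called on any day, with sums of 0.817 to 1.03 in the syngeneic grafts and 1.01 to 1.16 on day 100. Of 4 proliferation miRNAs tested, 1 rose on each of days 5, 8 and 14. The part of these cells in the values of the miR-15/16 family was not tested.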

How the data were processed

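MiRNA levels were measured in 15 mouse liver grafts with Agilent miRNA arrays in 1 color. For every spot the authors deposited an intensity from Feature Extraction (file headers give version 9.5.1.1), which is linear, has the background subtracted and is not normalized between arrays. A deposited table of log2 values was not used here.

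Spots were averaged per probe, leaving out control and outlier spots, and probes were summed per miRNA (2 probes per member, 6 to 10 spots each). Sums were scaled to the 75th percentile of the 52 miRNAs found on each of the 15 arrays, a floor of 0.0270 was set and log2 was taken. The floor understates folds of dim miRNAs. Tested were the 103 miRNAs that all 3 arrays of some group detected. One mean per group was fitted to the 15 arrays with limma (version 3.58.1, R 4.3.3), with Benjamini-Hochberg adjustment over the 103 and a threshold of 0.05. This applies to every adjusted p unless another test is named. A moderated F test covered the 5 groups. Ratios used an exact two-sided permutation test. With 3 arrays against 3 the number of mice limits precision, and an exact test cannot reach the threshold. No 2 arrays of a group held identical values.

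The text names the members, the fixed lists by their counts and the 3 miRNAs nearest to each member. Members and lists were chosen with earlier results of these data known. Alternatives were other scalings (75th percentile of all miRNAs, median, quantile, none), probe summaries, floors and filters, normexp (offset 50) on median spot signals, the methods' t-test, other moderation, only the groups compared, slide or replicate number as a block, and each array left out in turn. Allografts of days 5, 8 and 14 alone for the ratios were added after seeing the data. The limma step was tested on simulated data. Python 3.11.15 (numpy 2.4.6, pandas 2.3.3) was used for the rest.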

Additional observations from a re-analysis of the deposited data

Results flagged for a closer look

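The differences of these members from the syngeneic grafts were tested to differ between allograft days, with limma and the Benjamini-Hochberg adjustment, and the syngeneic arrays cancel in these comparisons. miR-322 differed between day 14 and day 5 by 0.84 on the log2 scale. Between day 14 and day 100 the log2 difference was 0.33 for miR-15a, 0.80 for miR-15b, 0.51 for miR-16, 1.54 for miR-322, -1.21 for miR-195 and -1.26 for miR-497. The value of miR-322 against day 100 is a fitted one with undetected arrays and is no bound. With normexp the differences of miR-322 from day 5 and from day 100 were no longer called. Day 14 lay on another slide than days 5 and 100. With the slide as a block miR-195 and miR-497 had -0.31 and -0.15 against day 100 and were no longer called.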

How the results depend on the processing

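Of the 19 called differences of members, 600 values were computed under alternatives, of which 498 stayed called in the same direction, 98 lost the call and 4 reversed. The 4 were all with normexp: miR-322 on day 8 (-0.21) and day 14 (-0.15), and miR-195 (-0.043) and miR-497 (-0.032) on day 100, each against the syngeneic grafts. The rises of miR-15b on days 8 and 14 and of miR-16 on day 14 stayed called under all 32 alternatives run. Without scaling, the median of all miRNAs tested moved to 0.54, 0.69, 0.71 and 0.33 on days 5, 8, 14 and 100 against the syngeneic grafts, and with normexp to -0.28, -0.23, -0.36 and -0.23. The causes were not tested.

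On day 5 the number of members called was 1 with the 75th percentile of all miRNAs, quantile scaling or no filter, and 0 with normexp, the methods' t-test after adjustment, a fit of only the groups compared, or the slide as a block. On day 100 it was 1 with the 75th percentile of all miRNAs, normexp, no filter, the methods' t-test unadjusted or the slide as a block, and 0 with only the groups compared or the t-test after adjustment. For day 14 against day 5 it was 0 with the 75th percentile of all miRNAs, no scaling, the floor divided by 4, no filter or the t-test after adjustment, 2 with quantile scaling, the mean log2 of probes, only the groups compared or trend and robust moderation, 3 with median scaling and 4 with the t-test unadjusted. With normexp it was 1 for day 14 against day 5, where miR-15b was called (adjusted p = 0.019) and miR-322 was not. Against day 8 it was 2 with median scaling and 1 with only the groups compared or the t-test unadjusted. Against day 100 it was 3 with the 75th percentile of all miRNAs, quantile scaling or the filter for detection on all 15 arrays, which leaves 3 members in the fit, and 1 with no filter. By the F test over groups it was 3 with the 75th percentile of all miRNAs, no scaling, quantile scaling or no filter, and 2 with detection on all 15 arrays.

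Leaving out 1 array at a time, the members called were 1 to 3 on day 5, 3 on day 8, 3 to 4 on day 14 and 1 to 4 on day 100 against the syngeneic grafts, 0 to 2, 0 and 3 to 6 for day 14 against days 5, 8 and 100, and 3 to 6 by the F test. The changes within arrays were 1.02 to 1.31 for miR-15b minus miR-16, -0.61 to -0.36 for miR-15a minus miR-16 and 1.38 to 1.92 for miR-15b minus miR-15a. With normexp miR-15a minus miR-16 was -0.15 (exact permutation test, adjusted p = 0.10). Within slides 1 and 2 miR-15b minus miR-16 was 1.44 and 0.89 and miR-15b minus miR-15a 2.13 and 1.16, and miR-15a minus miR-16 was -0.28 within slide 2.

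Replicate numbers did not pair the arrays, since 9 of 30 pairs of arrays with the same number had a correlation over 0.1 (range -0.65 to 0.45). With the replicate block the members called were 3, 3, 4 and 3 on days 5, 8, 14 and 100, 1, 0 and 5 for day 14 against days 5, 8 and 100, and 5 by the F test. Over all 103 miRNAs limma with this block called 25, 38, 46 and 30 against the syngeneic grafts, and for day 14 it called 9 against day 5, 50 against day 100 and 0 against day 8, where 20 had an unadjusted p under 0.05. It gained miR-322 on day 5 (0.49, adjusted p = 0.044) and lost miR-15a for day 14 against day 100 (adjusted p = 0.070). Dim members were limited by signal over background: miR-195, miR-322 and miR-497 lay at or near the floor on several arrays.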
